A study of Mus musculus with 2 samples.

Results

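The BCL2 family decides whether a cell keeps its mitochondria intact or releases the factors that start apoptosis. Pro-survival members such as BCL2, BCL-XL, MCL1 and A1 hold the pore-forming members BAX and BAK in check, and BH3-only members such as BIM and NOXA bind the pro-survival proteins and so free the pore formers. BIM is a well-known target of the microRNAs of the mir-17~92 cluster in mouse lymphocytes.

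Transcripts of 10 family genes were taken by symbol from the deposited gene table, and 9 of them had a row among 16463 genes. They were Bcl2l11 (BIM) and Pmaip1 (NOXA), which encode BH3-only proteins, Bax and Bak1, the pore formers, and Bcl2, Bcl2l1 (BCL-XL), Mcl1, Bcl2a1b and Bcl2a1d, which encode pro-survival proteins. The expression of Bcl2a1a is not analysed here, and only its annotated sequence is used. The RNA came from unstimulated bone marrow-derived macrophages, grown for 5 days with 10% L929 supernatant as the source of macrophage colony-stimulating factor. TKO cells came from C57BL/6J-labelled mice labelled -/- for mir-106b~25 and -/- for mir-106a~363, a cluster on chromosome X. These mice also carried Lyz2-Cre with a floxed mir-17~92 on both alleles (flox/flox). WT cells came from C57BL/6J-labelled mice carrying Lyz2-Cre alone. Lyz2-Cre is driven by the lysozyme M locus and acts in myeloid cells, so mir-17~92 is deleted only where Cre was active. The sources used here do not state age, sex or the number of mice per culture. There was 1 library per genotype, of 10656465 counts in TKO and 10877917 counts in WT. No difference between the libraries has a replicate check, and every 95% interval below covers counting error only. Mir17hg, the host transcript of mir-17~92, had 42 counts in TKO and 8 in WT, a log2 ratio of 2.46 (1.35 to 3.76), so the host of the floxed cluster was higher, not lower, in the library labelled TKO. It passed the minimum of 20 counts only through TKO. Mcm7, the host gene of mir-106b~25, had 1083 counts in TKO and 1228 in WT, a log2 ratio of -0.12 (-0.23 to 0.0033). These counts are of each host gene as a whole, and no mature microRNA was assayed, so the deletions are not checked by these data, and directions below rest on the genotype labels.

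The 3 clusters encode 13 differently named mature guide strands in 4 seed families. The strands below are shown because members of the BCL2 family hold a match to their seed (bases 2 to 8, in capitals). Sequences are those of RefSeq on GRCm38.p6, 5′ to 3′, and 1 strand per cluster stands for the miR-17 family.
miR-17-5p of mir-17~92: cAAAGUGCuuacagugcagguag
miR-106b-5p of mir-106b~25: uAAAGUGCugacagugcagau
miR-106a-5p of mir-106a~363: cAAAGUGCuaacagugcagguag
miR-19a-3p of mir-17~92: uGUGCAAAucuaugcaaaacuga
miR-92a-3p of mir-17~92 and mir-106a~363: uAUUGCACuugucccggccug
miR-25-3p of mir-106b~25: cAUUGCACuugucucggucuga
miR-363-3p of mir-106a~363: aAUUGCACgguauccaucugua
The first 3 strands share the seed AAAGUGC and the last 3 share AUUGCAC, so strands of the same family from different clusters have the same 7-base site.

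Bcl2l11 held more of these sites than any other family member. The sense strand of the longest annotated 3′ UTR of each of the 10 genes was searched for the complement of the seed, which is GCACTTT for miR-17, GCACCTT for miR-18, TTTGCAC for miR-19 and GTGCAAT for miR-25/92. A site followed by A is called an 8mer. The search found 9 sites in 4 genes, and 5 of the 9 were in Bcl2l11. The 9 are shown with their flanks from GENCODE M21 on GRCm38, with the site in capitals.
Bcl2l11 miR-17 site, chr2:128159766-128159792, plus strand: cctggtggaggaGCACTTTctaacctg
Bcl2l11 miR-17 8mer, chr2:128160440-128160466, plus strand: tccccgactggaGCACTTTactgtctc
Bcl2l11 miR-25/92 site, chr2:128161162-128161188, plus strand: ccaaatgtctctGTGCAATtgtgttcc
Bcl2l11 miR-19 site, chr2:128162395-128162421, plus strand: cttcctttacgtTTTGCACtgatgaat
Bcl2l11 miR-25/92 8mer, chr2:128162437-128162463, plus strand: gccactgtacctGTGCAATactgctgt
Mcl1 miR-25/92 8mer, chr3:95660824-95660846, plus strand: ccttgtgaGTGCAATaggggact
Mcl1 miR-17 8mer, chr3:95662631-95662657, plus strand: tcggacttcagaGCACTTTatgtagtt
Bak1 miR-25/92 site, chr17:27019812-27019838, minus strand: tggaaataaactGTGCAATgcccccaa
Bcl2 miR-17 site, chr1:106540033-106540059, minus strand: acagttaagggaGCACTTTcatgtagt
The miR-17 and miR-19 sites have the letters GCAC in common and could overlap, but the closest pair of sites, in Bcl2l11, started 42 bases apart.

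A site of this length is common, and its presence here is a description of the annotated sequence. How many of all genes hold as many sites as Bcl2l11 was not counted. Among 11055 genes with at least 20 counts in 1 library and an annotated 3′ UTR, 14.9% held a miR-17 site, 9.30% a miR-18 site, 13.4% a miR-19 site and 7.56% a miR-25/92 site, and 34.0% held a site of any of the 4 families. The 3′ UTR of Bcl2l11 is 4218 bases long, and 6.94% of those genes have a longer one. It carries 1.19 sites per kilobase, against 0.892 in Bak1, 0.850 in Mcl1 and 0.197 in Bcl2, whose 3′ UTR is the longest of the family at 5086 bases. No site was found in the 3′ UTRs of Bax (224 bases), Bcl2l1 (1477 bases), Pmaip1 (2192 bases) and the Bcl2a1 copies (147 to 149 bases). In Bcl2l1, another annotated transcript held a miR-17 and a miR-19 site.

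**Figure D1:**
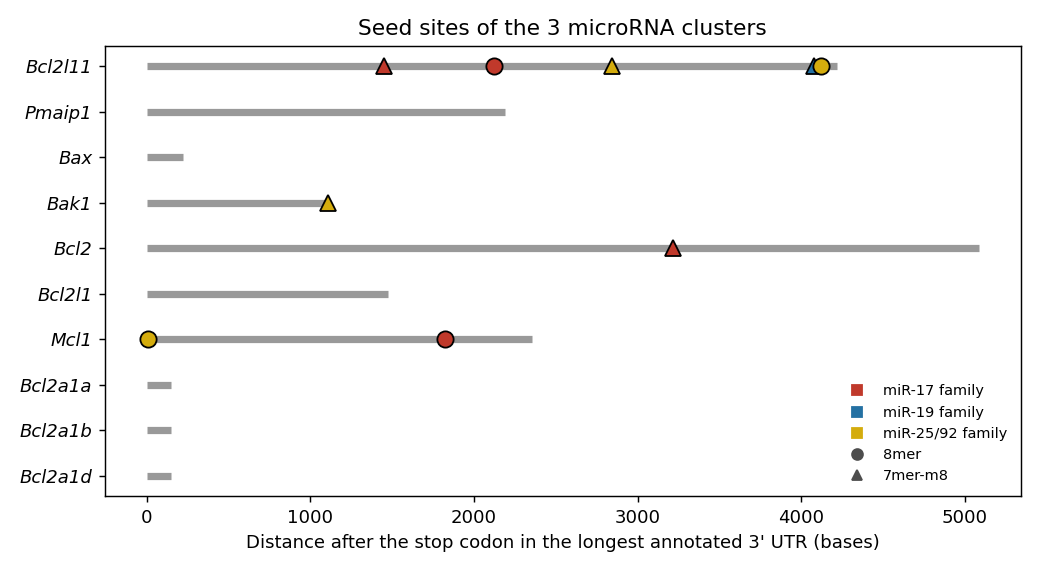
Seed sites of the deleted clusters along the longest annotated 3′ UTR of each family gene; the x axis is the distance after the stop codon in bases, grey bars are the 3′ UTRs, circles are 8mers, triangles are other sites, and colours are seed families. Bcl2l11 has 5 sites, Mcl1 has 2, Bak1 and Bcl2 have 1 each, and the other 6 genes have none.

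Bcl2l11 RNA did not differ between the libraries by more than the counting error. Bcl2l11 (Entrez 12125, chromosome 2, 128126038 to 128162547), the gene of BIM, had 1451 counts in TKO and 1505 in WT. In FPKM, a level scaled for transcript length and library depth, it stood at 27.6 in TKO and 28.1 in WT. The log2 ratio of TKO over WT, taken from counts scaled with TMM factors, was 0.013, with a 95% interval of -0.092 to 0.12. That is a 1.01-fold ratio, with an interval of 0.938-fold to 1.09-fold, so a difference of 1.5-fold lay outside the counting error. Of the 11525 genes with at least 20 counts in 1 library, 48.8% had a ratio at or above that of Bcl2l11. The ratio moved with transcript length in these libraries, and at the length of Bcl2l11 the trend of all genes was -0.14. With that trend removed, Bcl2l11 had a log2 ratio of 0.16 and an interval of 0.051 to 0.26. Whether the trend is technical was not tested.

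Pmaip1 (Entrez 58801, chromosome 18) encodes NOXA, a BH3-only protein that mainly binds MCL1 and A1. It had 140 counts in TKO and 171 in WT, or 4.93 FPKM in TKO and 5.91 in WT. The log2 ratio was -0.22, and the interval of -0.56 to 0.11 includes 0, so no difference was detectable at this depth.

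Among the pore formers, Bak1 had the highest ratio of the 9 genes. Bak1 (Entrez 12018, chromosome 17, 27019812 to 27028627), which encodes a pore former resident on mitochondria, had 2134 counts in TKO and 1596 in WT, or 99.3 FPKM in TKO and 72.9 in WT. The log2 ratio was 0.48 (0.39 to 0.58), a 1.40-fold higher value in TKO, and removing the length trend left 0.40. Of the 11525 genes, 8.23% had a ratio at or above this one. Bak1 lies 6.97 Mb from the MHC class I gene H2-K1 on chromosome 17. Some class I genes were nearly absent from the WT library, such as H2-L (7629 counts in TKO, 22 in WT) and H2-Q10 (422 and 1). They are examples, and class I genes that went the other way were not counted. The 32 other genes past the count minimum within 1 Mb of Bak1 had a median log2 ratio of 0.060. Of these, 1 was called higher and 1 lower by the rule given below, against 4.73% of all genes in either direction. Whether the position of Bak1 bears on its ratio was not tested.

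Bax (Entrez 12028, chromosome 7, 45461695 to 45466903), whose protein moves from the cytosol to mitochondria, had 966 counts in TKO and 891 in WT. Its levels were 107 FPKM in TKO and 96.8 in WT. The log2 ratio was 0.18 (0.049 to 0.32), above 0 by counting error alone, but removing the length trend gave -0.029. Its transcript is short, 869 bases in the deposited table, where the trend of all genes stood at 0.21.

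Mcl1 was the most abundant family transcript in both libraries and was somewhat higher in TKO. Mcl1 (Entrez 17210, chromosome 3, 95656944 to 95663179), which encodes a short-lived pro-survival protein, had 8843 counts in TKO and 7426 in WT. Its level was 236 FPKM in TKO and 194 in WT. The log2 ratio was 0.32 (0.27 to 0.36), or 1.25-fold, and removing the length trend gave 0.35. A ratio at or above this was seen for 15.2% of the genes past the count minimum.

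Bcl2l1 (Entrez 12048, chromosome 2, 152758732 to 152833803), which encodes BCL-XL, had 395 counts in TKO and 391 in WT, or 15.0 FPKM in TKO and 14.4 in WT. The log2 ratio was 0.080 with an interval of -0.13 to 0.29. The interval includes 0 and leaves room for at most a 1.22-fold higher value in TKO.

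Bcl2, the founding pro-survival gene, was the least abundant member and had the lowest ratio. Bcl2 (Entrez 12043, chromosome 1, 106538176 to 106714290) had 19 counts in TKO and 37 in WT, or 0.25 FPKM in TKO and 0.51 in WT. The log2 ratio was -0.90, with an interval of -1.78 to -0.061 that nearly reaches 0. It passed the minimum of 20 counts only through the WT library. With the length trend removed the ratio was -0.61 and its interval of -1.49 to 0.23 included 0, and the ratio was -1.03 in the authors' deposited table, which uses FPKM. The transcript length that counts and FPKM imply for Bcl2 was 7218 bases in TKO and 6583 bases in WT (9.65% longer in TKO), against a difference of -0.93% to 0.34% for the other members.

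The Bcl2a1 genes encode A1, a pro-survival protein induced in myeloid cells, and are near-identical copies on chromosome 9. Bcl2a1b (Entrez 12045, 89199273 to 89207838) had 237 rounded counts in TKO and 245 in WT, or 30.0 FPKM in TKO and 30.5 in WT, with a log2 ratio of 0.018 (-0.25 to 0.28). Bcl2a1d (Entrez 12047, 88723288 to 88731850) had 20 counts in TKO and 17 in WT, or 2.47 FPKM in TKO and 1.99 in WT. Its log2 ratio was 0.30 with an interval of -0.71 to 1.32, and it reached the count minimum only through the TKO library.

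The division of reads among these copies is uncertain. In the annotation the transcripts of Bcl2a1b and Bcl2a1d are identical at 99.1% of 817 aligned bases, and 57.6% of all 50-base stretches of Bcl2a1b occur in Bcl2a1d. Bcl2a1a is identical to Bcl2a1d at 98.8% and to Bcl2a1b at 98.2% of aligned bases, and 69.0% of its 50-base stretches occur in another copy. Summed over both genes with a row, the counts were 257 in TKO and 262 in WT, a log2 ratio of 0.038 (-0.22 to 0.29). Bcl2a1b took 92.2% of that sum in TKO and 93.5% in WT. Bcl2a1c, a related copy with 0 counts in TKO and 4 in WT, was too low for a ratio.

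**Figure D2:**
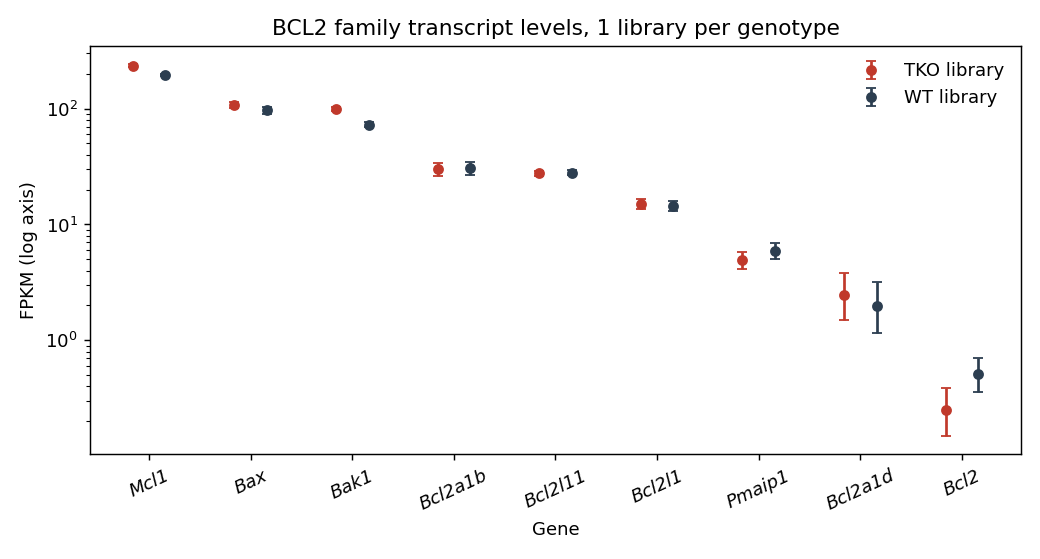
Levels of the 9 family transcripts in FPKM on a log axis, with the TKO library (red) left of the WT library (dark) for each gene; bars are 95% Poisson intervals of the count. The genes run from Mcl1 (236 in TKO, 194 in WT) to Bcl2 (0.25 in TKO, 0.51 in WT) in the same order in both libraries.

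Per length, the order of the members was the same in both libraries. In FPKM, Mcl1 came first, followed by Bax, Bak1, Bcl2a1b, Bcl2l11, Bcl2l1, Pmaip1, Bcl2a1d and Bcl2. The counting intervals of Bcl2a1b and Bcl2l11 overlapped in both libraries, and those of Bax and Bak1 overlapped in TKO, where they were 100 to 114 FPKM for Bax and 95.2 to 104 FPKM for Bak1. All other neighbours in the order were separated by more than the counting error. Bcl2l11 stood at percentile 82.5 of all 16463 genes by FPKM in TKO and at 83.1 in WT, and Mcl1 at 98.2 in TKO and 98.0 in WT.

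The balance of these members by role was alike in the libraries. The 5 pro-survival genes summed to 283 FPKM in TKO and 241 FPKM in WT, and the 4 pro-death genes summed to 239 FPKM in TKO and 204 FPKM in WT. The pro-survival share of the summed level was 54.2% in both libraries. That share depends on which genes are listed. It leaves out other family genes, such as Bad (28.3 FPKM in TKO, 27.1 in WT), Bid (20.2 and 17.5) and Bcl2l2 (7.26 and 7.15). Mcl1 made up 83.2% of the pro-survival sum in TKO and 80.4% in WT. In FPKM, Mcl1 exceeded Bcl2l11 by 8.53-fold in TKO and 6.91-fold in WT. These are RNA levels, and protein was not measured.

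**Figure D3:**
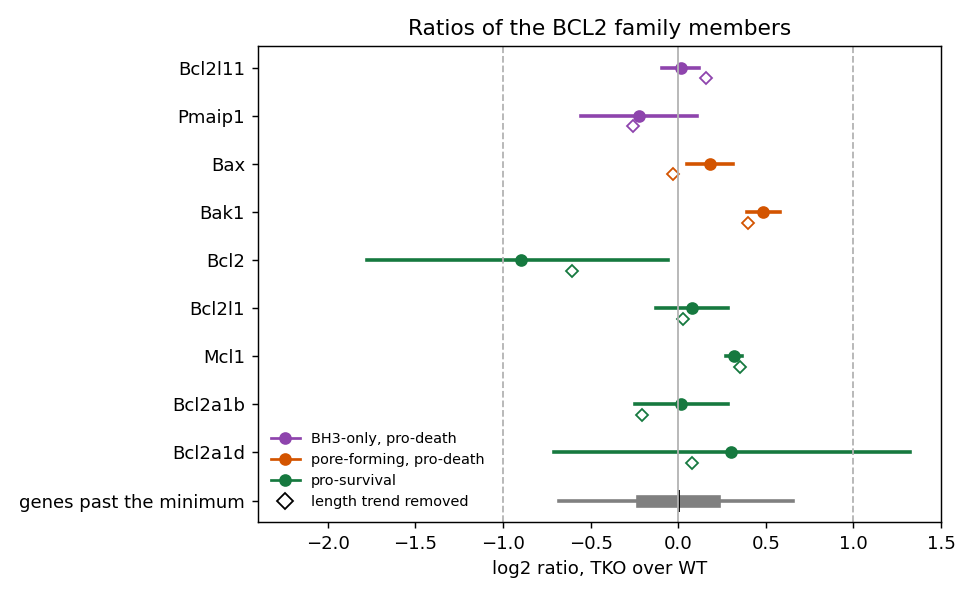
Log2 ratio of TKO over WT for the 9 members (filled points, bars are 95% counting intervals, colours are roles) and the value with the length trend removed (open diamonds). The grey bar gives the 5th to 95th percentile (-0.68 to 0.66) and the quartiles of all 11525 genes past the count minimum. Dashed lines mark 2-fold. No member's point reaches them, but the intervals of Bcl2 and Bcl2a1d cross them.

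Read against all genes, the family did not stand apart. A gene was called higher or lower when its log2 ratio was at least 1 in size, its 95% interval excluded 0 and it had at least 20 counts in 1 library. None of the 9 members was called, against 4.73% of all 11525 genes, of which 2.43% were higher and 2.30% lower in TKO. At 1.5-fold, Bcl2 alone was called lower, against 10.7% of all genes in either direction. Bcl2 passed the count minimum only through WT, where it had 37 counts against 19 in TKO. By the counting interval at any fold, Bak1, Mcl1 and Bax lay above 0 and Bcl2 below 0, which is 4 of 9 members, against 44.6% of all genes (21.8% above and 22.7% below 0). With the length trend removed, the intervals of Bax (-0.16 to 0.10) and Bcl2 included 0 and that of Bcl2l11 excluded it, so the genes were Bak1, Mcl1 and Bcl2l11, 3 of 9, against 36.7% of all genes. A share near that of all genes is not a result about the members. The median log2 ratio of the 9 members was 0.080, against 0.0042 over all genes, and the median size of the ratio was 0.22 for the members and 0.21 for all genes. Of the 9 members, 8 lay within 0.5 of 0, against 83.7% of all genes.

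**Figure D4:**
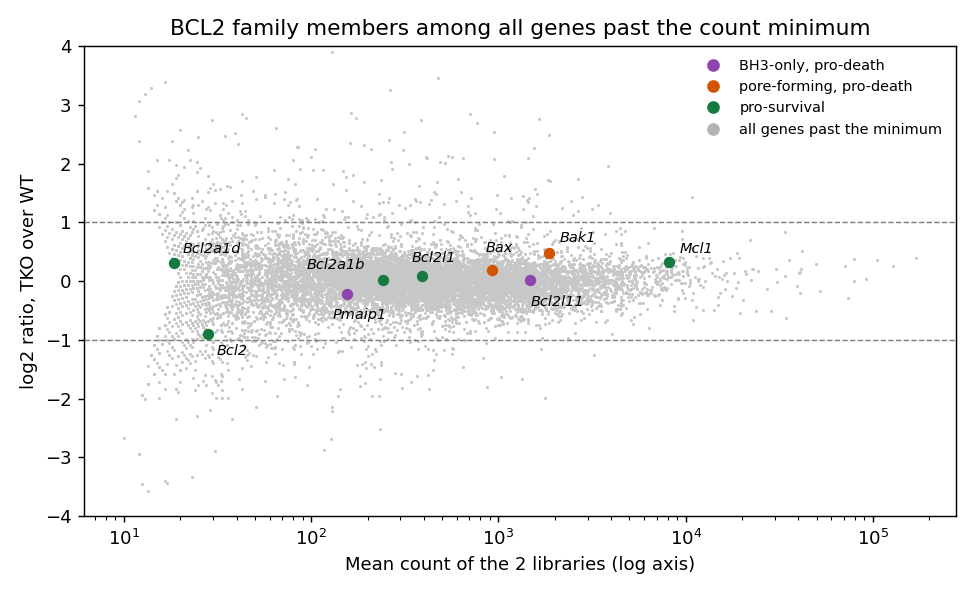
Log2 ratio of TKO over WT against the mean count of the 2 libraries (log axis) for all genes past the count minimum (grey) and the 9 members (coloured by role); dashed lines mark 2-fold, and 27 genes with a ratio beyond 4 in size are outside the plot. Bcl2 and Bcl2a1d sit at the low-count end, where the spread of all genes is widest, and Bak1 lies highest among the members.

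The genes whose levels were most like those of Bcl2l11 were Phax, Urod, Coa5, Asnsd1 and Numb. Likeness was the distance in log2 FPKM over the 2 libraries, which was 0.016 for Phax and 0.036 for Numb, and 93 named genes lay within 0.1. With 2 libraries, such a likeness says little beyond an equal level in each.

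Other apoptosis genes were described from lists chosen with earlier results of these data known. The rest of the BCL2 family had 11 of 19 genes past the count minimum, none of them called, and a median log2 ratio of 0.028. Among these, Bbc3, the gene of the BH3-only protein PUMA, had 279 counts in TKO and 219 in WT, a log2 ratio of 0.41 (0.15 to 0.68). Bnip3, a mitochondrial receptor for mitophagy, had -0.35, Bnip1 0.31 and Bcl2l13 -0.28. With the length trend removed these were -0.46 for Bnip3, 0.13 for Bnip1 and -0.010 for Bcl2l13. Bnip3l, the most abundant of the list at 51.3 FPKM in TKO and 58.1 in WT, had -0.14.

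The apoptosome, caspase and inhibitor list had 18 of 18 genes past the count minimum, none called, and a median of 0.026. Endog, a mitochondrial nuclease, had 84 counts in TKO and 51 in WT, a log2 ratio of 0.79 (0.27 to 1.32). Birc6, a very large ubiquitin-conjugating inhibitor of apoptosis, had a log2 ratio of -0.73, which was -0.18 with the length trend removed. Htra2, a protease that blocks inhibitors of apoptosis, had 0.42, and Cycs, cytochrome c, had 0.38. Birc5, survivin and the most abundant of the list, had 97.4 FPKM in TKO and 97.5 in WT.

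In the death receptor list 1 of 14 genes past the count minimum was called, higher in TKO, and the median was 0.080. That is 7.14% of the list, against 4.73% of all genes. Tnfsf10, which encodes the death ligand TRAIL and is known to be induced by interferon, had 78 counts in TKO and 24 in WT, a log2 ratio of 1.77 (1.09 to 2.49). Mlkl, the pore former of necroptosis, had 670 counts in TKO and 357 in WT, a log2 ratio of 0.97 (0.79 to 1.16), just under the threshold. Tnf had 0.90 (0.46 to 1.35) and the receptor gene Fas -0.46 (-0.98 to 0.058). Tnfrsf1a, the most abundant, had 0.078.

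Among regulators of BIM and NOXA expression, 1 of 16 genes past the count minimum was called, lower in TKO, with a median of -0.048. That is 6.25% of the list, against 4.73% of all genes. Foxo3, a transcription factor known to activate Bcl2l11, had 307 counts in TKO and 645 in WT, a log2 ratio of -1.01 (-1.21 to -0.81). That value lies at the threshold. On the scale of FPKM plus 1 it was -0.97, with the length trend removed -1.02, and in the authors' deposited table -1.04. Bcl2l11 itself, as given above, had a log2 ratio of 0.013. Ddit3 (CHOP), a stress factor that can also activate Bcl2l11, had 287 counts in TKO and 175 in WT, a log2 ratio of 0.78 (0.50 to 1.06). Irf1 had 0.63 and Mapk8 -0.28, and Mapk3 (ERK1), the most abundant, had -0.13.

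None of the 21 genes for partners and turnover of the BCL2 proteins was called, and their median was 0.045. Huwe1 and Usp9x, a ubiquitin ligase and a deubiquitinase that act on MCL1 protein, had log2 ratios of -0.63 and -0.50. Both have long transcripts, and their ratios were -0.10 and -0.042 with the length trend removed. Itpr1, a calcium channel gene, had 0.46 and March5, a mitochondrial ubiquitin ligase, 0.36, and with the trend removed these were 0.86 and 0.31, while Tmbim6, the most abundant, had 0.18.

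**Figure D5:**
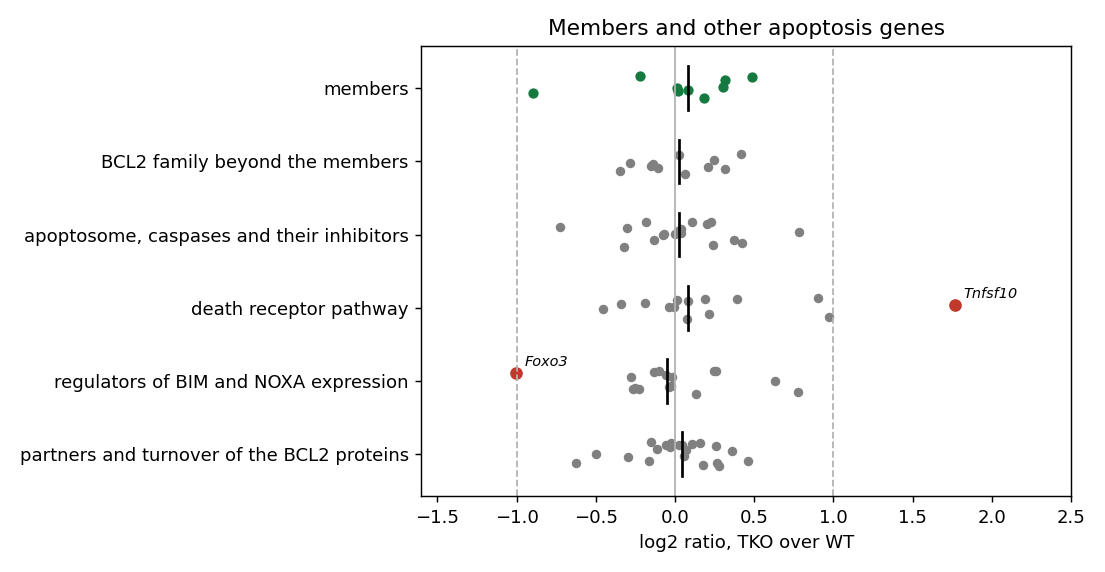
Log2 ratio of TKO over WT for the members and for 5 lists of other apoptosis genes past the count minimum; each point is a gene, short black lines are medians, dashed lines mark 2-fold, and red points are the called genes. The medians lie between -0.048 and 0.080, and only Tnfsf10 and Foxo3 are called.

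Markers of macrophages and of other cells were read in the same libraries. All 10 macrophage markers passed the count minimum, with none called and summed levels of 4200.1 FPKM in TKO and 3945 in WT. Fibroblast and stromal markers were called lower in TKO in 6 of 9 genes past the minimum, against 2.30% of all genes. All 9 had a ratio below 0. The list summed to 28.7 FPKM in TKO and 97.3 in WT, with Lum at 2 counts in each. Of the 6 called genes, Pdgfra (13 counts in TKO, 35 in WT) passed the minimum only through WT. Dendritic cell markers summed to 43.8 FPKM in TKO and 18.2 in WT. Of the 5 past the minimum, Itgax and Cd24a were called higher with over 100 counts in each library. Flt3 and Dpp4 were called higher but passed the minimum only through TKO, where their counts were higher. Xcr1, with 34 counts in TKO and 25 in WT, was not called. Over all 11525 genes, 2.43% were called higher. The dendritic markers under the minimum were Ccr7 (14 counts in TKO, 5 in WT), Clec9a (4 and 1), Siglech (6 and 4) and Zbtb46 (3 and 5). Neutrophil markers summed to 33.2 FPKM in TKO and 27.6 in WT. Csf3r, with 982 counts in TKO and 919 in WT, was not called. S100a8 (21 in TKO, 9 in WT) and Mmp9 (19 in TKO, 52 in WT) each passed the minimum only where its count was higher. The neutrophil markers under the minimum were Mpo (18 counts in TKO, 4 in WT), S100a9 (12 and 10), Ltf (6 and 1), Elane (3 and 0) and Camp (0 and 1). The B cell markers summed to 1.92 FPKM in TKO and 2.62 in WT, with Pax5 at 0 counts in TKO and 1 in WT. T and NK cell markers summed to 64.6 FPKM in TKO and 62.7 in WT, of which Il7r made up 62.0 in TKO and 59.6 in WT. In each of these lists 1 of 2 genes past the minimum was called lower, Ebf1 (8 counts in TKO, 21 in WT) only through WT, and Cd4 with 25 counts in TKO and 64 in WT. The part of other cells in the family's values was not tested, and in such bulk RNA fewer cells of a type and less RNA per cell cannot be told apart.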

How the data were processed

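The members and gene lists were chosen with earlier results of these data known. The submitters' processing notes list RSEM 1.2.12, HISAT2 2.0.4 and Bowtie2 2.2.5 with the mm10 build and state no role for any. The annotation, filters and read length were not given in the sources. The deposited table gives expected counts per gene (21.1% not whole in TKO, 21.3% in WT) and, per the file headers, FPKM, with 0.01 in place of 0. The log2 ratio in the authors' table is that of FPKM. The authors' p-value and their FDR, a score with 713 values above 1, were not used. The deposited length per gene is in bases.

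Expected counts were rounded and scaled with TMM factors (0.988 for TKO, 1.01 for WT; edgeR 4.0.16, R 4.3.3). Ratios had no pseudocount, but a count of 0 in 1 library was set to 3 for the ratio, as a bound. The ratios had exact conditional binomial (Clopper-Pearson) intervals. These cover counting error only and hold no variation between cultures. PCR copies were not told apart by molecular identifiers, so the intervals may be too narrow even for counting error. No test was run, as each genotype had 1 library. Intervals and calls were tried on simulated Poisson counts with known answers. Only genes with ample counts were changed, and no variation beyond counting was drawn. The simulation therefore checks the calculation, not low-count members or differences between cultures. The length trend is a lowess fit (span 0.3) of the ratio on log2 length. Levels have exact Poisson intervals. Gene positions are from RefSeq GRCm38.p6 and 3′ UTRs from GENCODE M21 (GRCm38, which mm10 is based on). Named were all members, and up to 4 genes per list with the largest ratios plus the most abundant. Mir17hg, Mcm7 and the 5 genes nearest to Bcl2l11 were named as well. Bcl2a1c, H2-L, H2-Q10 and the single cell type markers were named after their values were seen. Alternatives were other scalings (totals, DESeq2 1.42.0), count minimums, folds, intervals, FPKM plus 1, removal of the length trend, and other sites and transcripts. The authors' deposited ratio was a further alternative.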

Additional observations from a re-analysis of the deposited data

How the results depend on the processing

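No paired analysis was possible because each genotype had 1 library, and for the same reason no library could be left out. None of the 9 members was called under any scaling, interval, count minimum or with the length trend removed; at 1.5-fold 1 member, Bcl2, was called. At 100 counts neither Bcl2 nor Bcl2a1d passed. Bcl2 lay below the minimum of 1 FPKM used on the scale of FPKM plus 1, where its ratio was -0.27. Bcl2l11 ranged from -0.023 to 0.16 (log2), the highest with the length trend removed, and was below 0 with scaling by totals, DESeq2 size factors and FPKM. Bak1 ranged from 0.40 to 0.48, Mcl1 from 0.28 to 0.35, Bcl2 from -0.93 to -0.61 where it passed, Pmaip1 from -0.26 to -0.22, Bax from -0.029 to 0.18 and Bcl2a1b from -0.21 to 0.018. These ranges leave out the authors' deposited ratio, which was -1.03 for Bcl2 and -0.024 for Bcl2l11. Over all genes, 280 were higher and 265 lower in TKO; these counts became 591 and 638 at 1.5-fold, 76 and 26 at 4-fold, 164 and 95 at 100 counts, and 122 lower on the scale of FPKM plus 1. The last setting has no counting interval. Adding Bcl2a1c to the summed Bcl2a1 counts, an alternative chosen after seeing the data, gave 0.016. Among seed sites, 6mers gave 5 of 10 members for miR-17 (3 with the longer site), 4 for miR-18 (0), 2 for miR-19 (1) and 5 for miR-25/92 (3), against 42.3%, 36.2%, 27.6% and 26.1% of all genes with a 6mer. For miR-19, 8mers gave 0 and any annotated transcript 2. Depth limits Bcl2 and Bcl2a1d, whose intervals span more than 1 log2 unit.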
